A study of Mus musculus with 12 samples.

Results

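The 33 genes described here encode, by their names, proteins of the small subunit of the cytosolic ribosome. They were taken from the 78334 gene IDs of the count table by symbol, as Rpsa or as Rps followed by digits and then nothing, a, x, l or l1. Numbered pseudogenes (names with -ps) and the Rps6k kinases were left out. The table holds raw read counts from the hypothalamus, the brain region that governs appetite and energy use, of male C57BL/6 mice. Control animals (3 libraries) ate a standard diet and were gavaged with vehicle. Diabetes animals (4 libraries) were injected intraperitoneally with streptozotocin, a toxin of insulin-producing cells, at 70 mg/kg on postnatal day 2, and ate a diet with 60% of its energy from fat for 8 weeks from the age of 3 weeks. They received the same vehicle. The curcumin group (3 libraries) had the same injection and diet plus daily gavage of curcumin, a polyphenol of turmeric, at 50 mg/kg for 28 days. The garlic group (2 libraries) had them plus aged garlic extract at 200 mg/kg over the same number of days. The model combines a toxin and a diet, so a difference from control cannot be assigned to either alone.

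The small subunit of the ribosome binds the mRNA and reads its codons. Its proteins fold with the 18S ribosomal RNA into a head, a body and a platform, and most of them are needed for the subunit to mature. Their mRNAs usually begin with a short run of pyrimidines, the 5′ terminal oligopyrimidine (TOP) tract, through which the kinase complex mTORC1 and the RNA-binding protein LARP1 control their translation and stability. Each protein is usually made from 1 intron-bearing gene, but reverse transcription of these abundant mRNAs has left many intronless copies, most of them annotated as processed pseudogenes. Reads of a gene and its copy can be hard to tell apart, and how reads that match several places were counted is not given in the sources used here.

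Library totals ran from 12950017 to 30271706 counts. Thinned to the lowest depth, control libraries held 25766 to 33157 detected genes and diabetes libraries 20133 to 22515. Curcumin libraries held 20917 to 29126 and garlic libraries 33125 to 34719. Diabetes replicate 4 stood apart: the summed level of 7 anterior pituitary markers was 856 CPM (counts scaled to library size) there and at most 15.3 CPM in the other 11 libraries, with Lhb at 0 in all 12. Curcumin replicate 2 stood apart as well, with 0.794 CPM summed over 8 hypothalamic transcription factors against at least 131.6 CPM elsewhere. The 5 blood cell markers summed to 264 to 1753 CPM in diabetes libraries and 87.4 to 196 CPM in control libraries. Their sums were 122 to 503 CPM with curcumin and 115 to 153 CPM with garlic. In bulk tissue, fewer cells of a type and less RNA per cell cannot be told apart.

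Of the 33 genes, 32 passed the filter on low counts. The exception was Rps12l1, an annotated processed pseudogene, with 0 counts in all 12 libraries; a count of 0 allows up to 3 counts, or 0.106 to 0.261 CPM depending on the library. Rps4l, an intronless relative of Rps4x, is annotated as a transcribed processed pseudogene and had 12806 counts in all. The other 31 are annotated as protein coding.

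The sequences below show how alike some of these genes and their copies are. Copies were defined as other annotated genes with at least 85% identity to a member over at least 50% of its coding sequence, or named as its numbered pseudogene, each assigned to its closest member. There were 447, of which 315 had counts. Each stretch is 60 bases in the GENCODE M21 annotation of GRCm38. It is coding sequence for the gene named first and annotated transcript for the copies and for Rps4l, which has no annotated coding sequence. Capitals mark the bases at which the gene and its copy, or a pair of related genes, differ. The stretch with the most differences is shown for each pair, and positions are counted from the first base of the start codon of the gene named first.
Rps10, bases 379 to 438: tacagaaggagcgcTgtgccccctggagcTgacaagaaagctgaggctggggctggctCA
Rps10-ps2: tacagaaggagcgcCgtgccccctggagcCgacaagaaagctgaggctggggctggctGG
Rps15, bases 175 to 234: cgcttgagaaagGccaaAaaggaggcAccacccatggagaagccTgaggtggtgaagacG
Rps15-ps2: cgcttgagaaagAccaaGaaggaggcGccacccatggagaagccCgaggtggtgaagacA
Rps4x, bases 475 to 534: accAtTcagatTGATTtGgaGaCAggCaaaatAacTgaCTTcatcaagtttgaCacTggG
Rps4l: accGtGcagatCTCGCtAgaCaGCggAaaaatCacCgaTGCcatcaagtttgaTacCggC

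Even where they differ most, Rps10 and Rps10-ps2 differ at 4 of 60 bases and Rps15 and Rps15-ps2 at 5, whereas Rps4x and Rps4l differ at 20. Over 783 aligned bases, the coding sequence of Rps4x and the transcript of Rps4l were 79.9% identical. Rps27 and Rps27l, the other related pair with counts, were 76.2% identical. For each gene, only the copy with the most counts was aligned in this way. That copy was 100% identical to the coding sequence for 5 genes, namely Rps6 (Rps6-ps4), Rps13 (Rps13-ps2), Rps16 (Rps16-ps2), Rps27 (Rps27rt) and Rps29 (Gm14303). Other genes may have an identical copy among those not aligned.

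Most counts of these families lay at the copies. Summed over the 12 libraries, the 33 genes had 714130 counts and their copies 1305959, so 35.4% of the counts were at the genes themselves. Rps6, the substrate of S6 kinase, had 12565 counts against 117151 at Rps6-ps4. Rps16, a head protein, had 2014 against 74800 at Rps16-ps2. Rps29, a small zinc-binding head protein, had 699 against 63819 at Gm14303. The share at the gene was under 10% for 10 genes and lowest for Rps29, at 1.07%, and Rps10, at 1.35%. At the other end, no count of a copy was recorded for Rps9, and Rps3 and Rps4l held 99.9% of their family's counts. None of the 150-base windows of the coding sequence of Rps3, Rps15, Rps21 or Rps27l, or of the transcript of Rps4l, occurred in a transcript of another gene. Every such window did for Rps6, Rps12, Rps13, Rps16, Rps27, Rps27a, Rps28 and Rps29. Values below are therefore given for the gene's own counts and, where it matters, for the gene and its copies summed, a second count chosen in part after seeing the data.

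**Figure D1:**
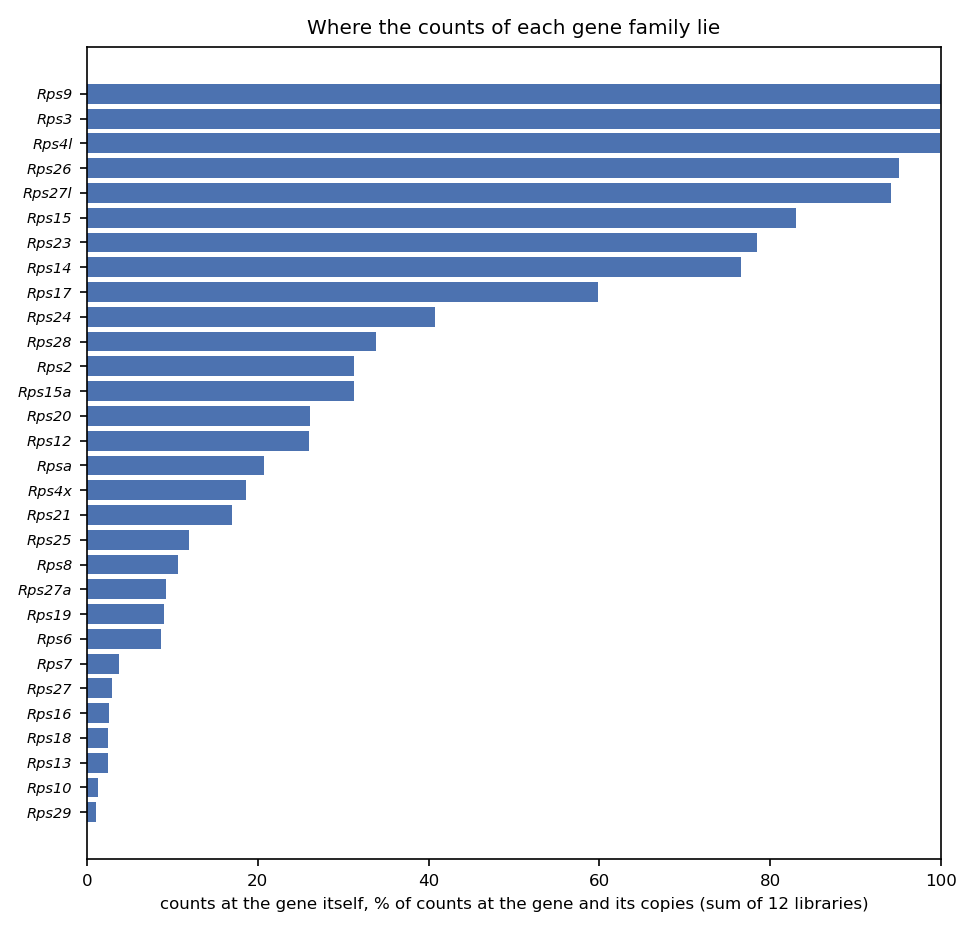
Horizontal bars give, for 30 of the 32 genes with counts, the counts at the gene itself as a percentage of those at the gene and its copies, summed over 12 libraries. The share runs from 1.07% for Rps29 to 100% for Rps9.

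Because one copy of each protein sits in each ribosome, the spread of levels between genes is a useful description. In control libraries, the mean level per kilobase of coding sequence, over the 31 protein-coding genes, ran from 8.24 CPM per kb for Rps18 to 562.5 CPM per kb for Rps15. The standard deviation of the log2 level was 1.88. With the copies added, the range was 18.8 CPM per kb for Rps23 to 1453 CPM per kb for Rps29, and the standard deviation was 1.37. The number of genes under 50 CPM per kb was 12 from own counts and 1 with copies. That gene was Rps23, a protein of the decoding centre. It shared 98.6% of its windows with other genes, while its assigned copies held 346 counts in all.

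Summed over the 33 genes, levels were higher in diabetes than in every other group. The sums were 1986, 2193 and 2617 CPM in control libraries and 4283, 3474, 5434 and 5356 CPM in diabetes libraries. They were 1601, 2565 and 2172 CPM with curcumin and 1649 and 2809 CPM with garlic. All 4 diabetes libraries lay above the other 8, which overlapped one another. The group means were 2265 ± 322 CPM in control (SD, n = 3), 4637 ± 936 in diabetes (SD, n = 4), 2113 ± 485 with curcumin (SD, n = 3) and 2229 ± 821 with garlic (SD, n = 2). The copies, which are counted apart from the genes, had sums of 4094 ± 556, 8538 ± 1499, 3856 ± 1020 and 3798 ± 1542 CPM in the same order. As a share of all counts the 33 genes took 0.235 ± 0.0389%, 0.440 ± 0.0760%, 0.212 ± 0.0430% and 0.231 ± 0.0864%. The sums are descriptions, since the genes were grouped with earlier results known. The highest levels lay in the group with the fewest detected genes and the most blood markers. Single libraries did not all follow this pairing. Curcumin replicate 1 had 20917 detected genes, within the diabetes range, and the lowest sum, at 1601 CPM. Curcumin replicate 2 had 503 CPM of blood markers and a sum of 2565 CPM. Regional markers differed between the groups as well. The summed level of 13 hypothalamic neuron markers was 2545 to 5171 CPM in diabetes libraries, all 4 above the other 8, against 1659 to 2354 CPM in control libraries. Curcumin libraries had 309.5 to 1693 CPM of them, and garlic libraries 1069 to 2494 CPM. The 13 did not move alike: in diabetes against control 9 had a log2 change above 0, where 45.9% of all genes did. At an unadjusted p under 0.05 (edgeR), 2 were higher (4.79% of all genes) and 1 was lower (7.48%). Agrp was at 0 CPM in all 4 diabetes libraries, and Oxt stood at 219, 820, 285 and 938 CPM there against 456 to 717 CPM in control. Pomc stood at 171, 237, 343 and 1088 CPM in diabetes, highest in replicate 4. The summed level of 7 markers of the neighbouring thalamus and habenula was 108 to 150 CPM in diabetes libraries, all 4 below the 3 control libraries at 171 to 356 CPM. It was 132 to 463 CPM among curcumin libraries and 154 to 156 CPM among garlic libraries. These 7 did not move alike either: in diabetes against control 2 had a log2 change above 0. At an unadjusted p under 0.05 (edgeR), 3 of the 7 were lower and 0 higher. Tcf7l2 alone stood at 325 CPM in curcumin replicate 2. None of the 13, the 7 or the 5 blood markers was at 0 in all libraries, and the part of blood RNA and of the region sampled in the ribosomal protein results was not tested.

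**Figure D2:**
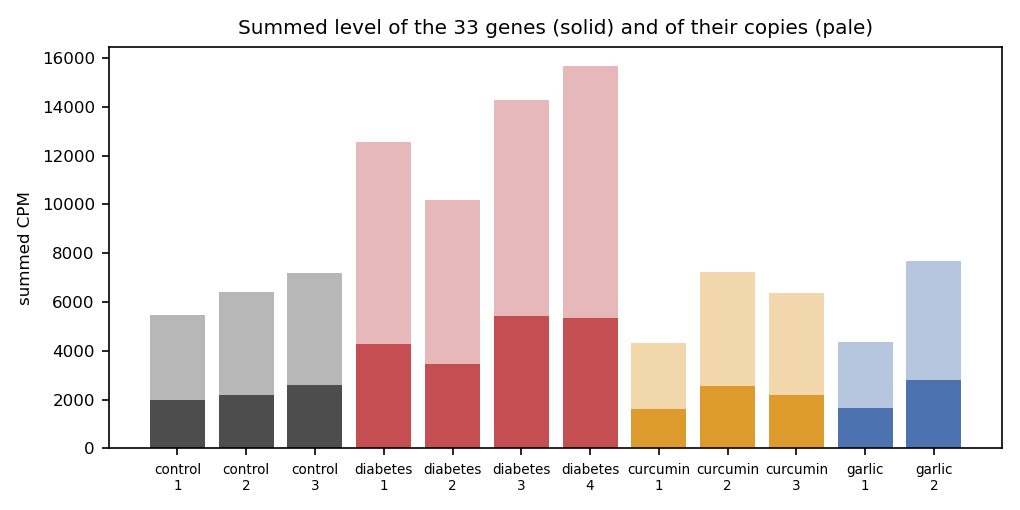
Bars give the summed CPM of the 33 genes (solid) and of their copies (pale) in each of the 12 libraries, coloured by group. The solid bars of the 4 diabetes libraries reach 3474 to 5434 CPM and those of the other 8 libraries 1601 to 2809 CPM.

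The first comparison asks which of these genes differed in the diabetes model. Rps2, a body protein near the entry of the mRNA channel, rose. It stood at 60.8, 62.3 and 70.9 CPM in control and 185, 162, 231 and 167 CPM in diabetes, with no overlap. Its log2 change was 1.53 ± 0.23 (SE, adjusted p = 0.0325, edgeR quasi-likelihood test). It was the 1 gene of 32 that passed, where 0.0156% of all 25562 genes tested passed as higher and 0 as lower. The call was lost in 13 of 19 other ways of fitting, among them without diabetes replicate 4 (log2 change 1.57, adjusted p = 0.111), with the number of detected genes as a covariate (1.33, adjusted p = 0.176) and after correction for transcript length (1.34, adjusted p = 0.710). The log2 change itself stayed between 1.20 and 1.60.

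The next largest changes belonged to 3 genes that did not pass. Rps15, a head protein close to the site where tRNA enters, stood at 221, 255 and 259 CPM in control and 590, 458, 843 and 829 CPM in diabetes. Its log2 change was 1.47 ± 0.36 (SE, adjusted p = 0.135, edgeR). Rps14, a platform protein near the exit of the mRNA, stood at 89.1, 142 and 161 CPM in control and 344, 303, 465 and 266 CPM in diabetes, with a log2 change of 1.40 ± 0.31 (SE, adjusted p = 0.122, edgeR). Rps4l stood at 34.4, 40.1 and 39.2 CPM in control and 77.1, 82.5, 116 and 103 CPM in diabetes, with a log2 change of 1.32 ± 0.24 (SE, adjusted p = 0.0791, edgeR). In all 3 the lowest diabetes library lay above the highest control library.

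Rps3 had no shared windows and was among the 3 highest genes per length in control. Rps3, a head protein at the entry of the mRNA channel, stood at 352, 379 and 403 CPM in control and 877, 560, 1245 and 845 CPM in diabetes (log2 change 1.22 ± 0.28, SE, adjusted p = 0.125, edgeR). The groups did not overlap, and it did not pass.

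Over the 32 genes, the log2 change was above 0 in 26, where it was above 0 in 45.9% of all genes. The median was 0.67, against -0.07 over all genes tested. An unadjusted p under 0.05 with a higher level was reached by 15 genes, where 4.79% of all genes reached it. With a lower level it was reached by 0 genes, where 7.48% of all genes reached it. Groups did not overlap and diabetes was higher in 12 genes, where 5.78% of all genes met this. They included Rps2, Rps3, Rps4l, Rps9, Rps14, Rps15, Rps20, Rps24, Rps26 and Rpsa. By position in the subunit, the median was 0.53 over 14 head proteins and 0.72 over 16 body and platform proteins. Without diabetes replicate 4 and curcumin replicate 2, 0 genes passed and the median was 0.54. With the number of detected genes as a covariate the median was 1.14, in a fit that cannot separate that number from the group.

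**Figure D3:**
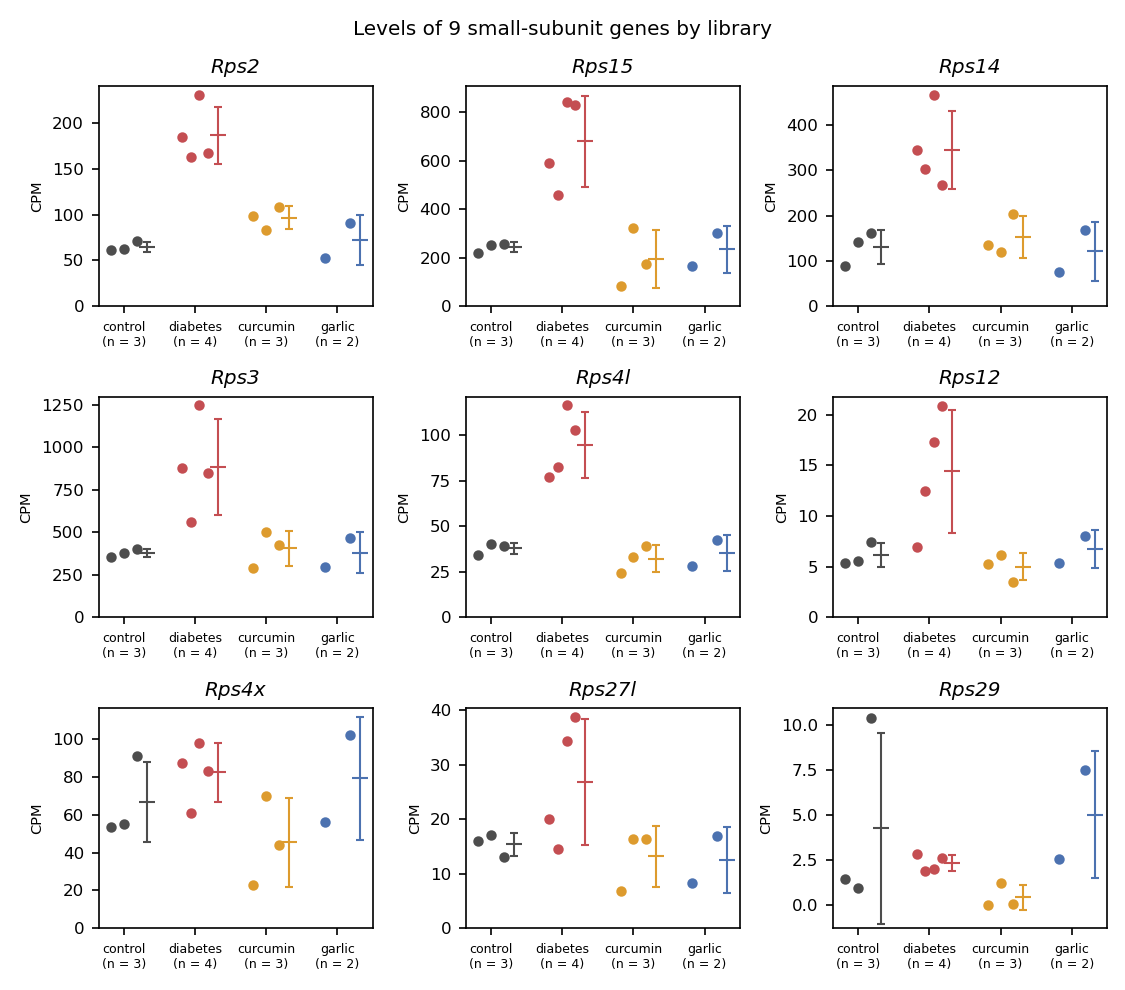
Each panel shows 1 gene, with its level in CPM on the vertical axis and points for the libraries of each group; the dash and bar beside them are the mean and SD. In the panels of Rps2, Rps15, Rps14, Rps3 and Rps4l the 4 diabetes libraries lie above all 3 control libraries, and in those of Rps12, Rps4x, Rps27l and Rps29 the groups overlap.

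The 4 lowest log2 changes belonged to genes with few counts of their own. Rps29 stood at 1.48, 0.994 and 10.4 CPM in control and 2.86, 1.91, 2.00 and 2.63 CPM in diabetes, so control replicate 3 lay above every diabetes library. Its log2 change was -0.86 ± 1.08 (SE, adjusted p = 0.907, edgeR). Rps28, another head protein, stood at 2.23, 3.37 and 10.3 CPM in control and 1.69, 2.76, 5.04 and 6.25 CPM in diabetes (-0.43 ± 0.73, SE, adjusted p = 0.953, edgeR). Rps23 stood at 4.17, 3.04 and 10.4 CPM in control and 3.67, 7.88, 2.52 and 5.37 CPM in diabetes (-0.27 ± 0.79, SE, adjusted p = 0.985, edgeR). Rps13, a body protein, stood at 2.53, 6.18 and 7.83 CPM in control and 5.75, 5.34, 4.26 and 3.25 CPM in diabetes (-0.24 ± 0.82, SE, adjusted p = 0.987, edgeR). In each of these 4 the groups overlapped, and without control replicate 3 each change was above 0, at 0.93, 0.49, 0.43 and 0.10 in the same order.

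Adding the copies altered some of these values and left others. Rps29 with its copies stood at 239, 264 and 230 CPM in control and 390, 264, 320 and 675 CPM in diabetes, with a log2 change of 0.76 ± 0.43 (SE, adjusted p = 0.513, edgeR). Rps13 with its copies had a change of 0.82 ± 0.28 (SE, adjusted p = 0.288, edgeR). Rps23 and Rps28, which stayed under 30 CPM in every library with copies added, had changes of -0.45 ± 0.76 and -0.34 ± 0.49 (SE, adjusted p = 0.953 and 0.935, edgeR).

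Rps10 and Rps16 are described because their values with copies were seen to differ widely from their own. Rps10, a head protein near the mRNA entry, stood at 2.45, 5.52 and 5.03 CPM in control and 4.17, 4.39, 4.26 and 5.42 CPM in diabetes on its own. With copies it stood at 188, 224 and 209 CPM in control and 433, 392, 552 and 648 CPM in diabetes. The log2 change was 0.07 ± 0.93 from own counts and 1.29 ± 0.27 with copies (SE, adjusted p = 0.996 and 0.0945, edgeR). Rps16 had changes of 0.05 ± 0.49 and 1.43 ± 0.35 (SE, adjusted p = 0.996 and 0.143, edgeR).

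Grouped by the share of counts at the gene, the 11 genes with at least 50% had a median log2 change of 1.02, the 11 with 10 to 50% one of 0.79 and the 10 with under 10% one of 0.13. With copies added the medians were 1.01, 0.97 and 1.02. An unadjusted p under 0.05 with a higher level in own counts was reached by 8, 7 and 0 genes of these sets. Across the 32 genes, the share correlated with the log2 change at a Spearman rho of 0.60 and a Pearson r of 0.53. This is a description across genes that share the same 7 libraries. With copies, 30 of 32 changes were above 0, Rps23 and Rps28 being the exceptions, and the median was 1.01. An unadjusted p under 0.05 with a higher level was reached by 25 genes, where 4.75% of the 25405 genes of that fit reached it. In 26 genes diabetes was higher without overlap, where 5.79% of genes met this. None of the 32 passed in that fit, where 0.00787% of all genes passed as higher, and Rps2 had 1.20 ± 0.24 (SE, adjusted p = 0.0889, edgeR).

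**Figure D4:**
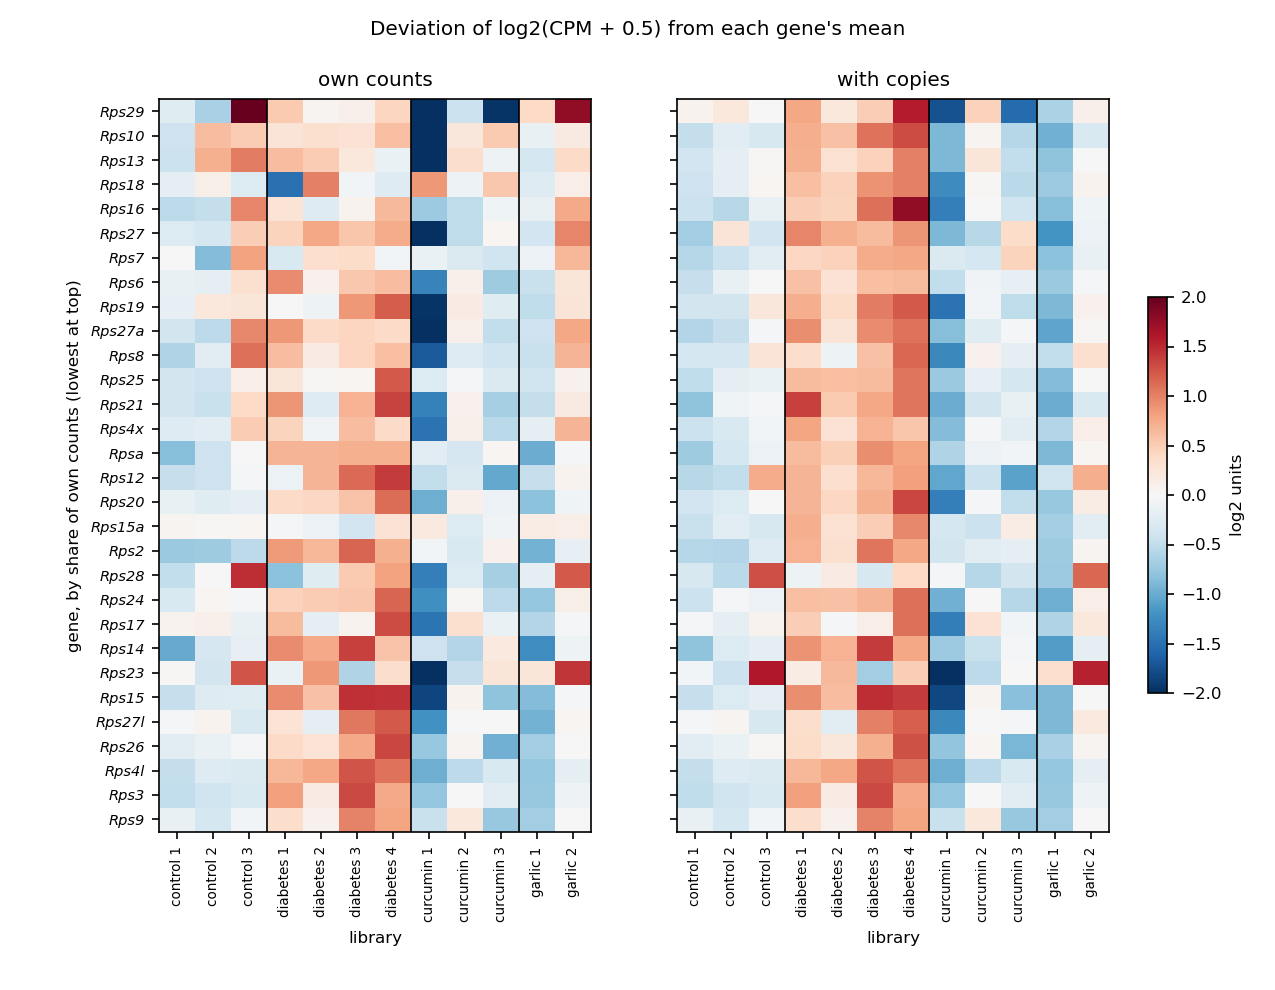
Colours give, for 30 genes (rows, ordered by the share of counts at the gene, lowest at the top) and 12 libraries (columns), log2(CPM + 0.5) minus its mean over the 12 libraries, with the scale ending at -2 and 2. On the left, from own counts, the rows at the top follow control replicate 3, curcumin replicate 1 and garlic replicate 2; on the right, with copies, most rows are high in the 4 diabetes libraries, except Rps23 and Rps28.

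The second comparison asks which genes differed with curcumin in the diabetes model. Rps4l fell. It stood at 24.3, 33.4 and 39.0 CPM with curcumin against the 77.1 to 116 CPM in diabetes, with no overlap, and its log2 change was -1.55 ± 0.25 (SE, adjusted p = 0.0452, edgeR). It was the 1 gene of 32 that passed, where 0.0861% of all genes tested passed as lower and 0.00391% as higher. It passed in 12 of 19 other ways of fitting, among them without diabetes replicate 4 and curcumin replicate 2 (adjusted p = 0.0121), and not after correction for transcript length (log2 change -1.42, adjusted p = 0.334).

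Rps15 stood at 85.2, 322 and 175 CPM with curcumin, all below the 4 diabetes libraries, with a log2 change of -1.81 ± 0.36 (SE, adjusted p = 0.0541, edgeR). Without the libraries that stood apart it was -2.26 (adjusted p = 0.00484). Rps3 stood at 291, 499 and 425 CPM (-1.12 ± 0.28, SE, adjusted p = 0.0891, edgeR). Rps14 stood at 134, 119 and 205 CPM (-1.17 ± 0.30, SE, adjusted p = 0.0957, edgeR). Rps2 stood at 98.5, 83.0 and 108 CPM (-0.95 ± 0.23, SE, adjusted p = 0.0846, edgeR), in own counts below diabetes and above control without overlap. With copies, Rps2 with curcumin overlapped control, at 260, 288 and 297 CPM against 225, 224 and 282 CPM. Rps15, Rps3, Rps14 and Rps2 each had every curcumin library below every diabetes library.

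Over the 32 genes, the log2 change was below 0 in 30, the exceptions being Rps15a (0.01 ± 0.21, SE) and Rps18 (0.47 ± 0.65, SE), where 53.1% of all genes were above 0. The median was -1.04, against 0.07 over all genes. An unadjusted p under 0.05 with a lower level was reached by 23 genes, where 6.71% of all genes reached it. In 17 genes curcumin was lower without overlap, where 4.19% of all genes met this. With copies, all 32 changes were below 0 with a median of -1.14. In 24 genes curcumin was lower without overlap, where 4.12% of all genes met this. In that fit 29 genes had an unadjusted p under 0.05 (6.66% of all genes as lower), and Rps4l passed (adjusted p = 0.0442, edgeR; 0.0748% of all genes as lower). Curcumin replicate 2 weighed on the count of calls: without it, 14 genes passed as lower, where 4.82% of all genes did.

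Curcumin replicate 1 had the lowest values of several genes with few counts. It had 0 counts of Rps10 and Rps29, 2 of Rps13 and 3 of Rps23, where the other libraries had 49 to 118 of Rps10 and 49 to 173 of Rps13. Rps29 stood at 0, 1.24 and 0.0990 CPM with curcumin. Rps28 stood at 0.993, 2.68 and 1.93 CPM. None of these 5 genes passed the test against diabetes.

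The third comparison, with aged garlic extract, rests on 2 libraries. No gene passed (smallest adjusted p = 0.115, edgeR), and 0 of all 25562 genes tested passed in either direction, or 0%. With an unadjusted p under 0.05, 14 genes were lower, where 4.03% of all genes were, and 0 were higher, where 6.9% were. DESeq2 gave 8 genes as lower, where 0.847% of the 49370 genes with a p-value there were. From limma-voom came 9, where 1.4% of the 25562 genes were. Rps4l stood at 28.1 and 42.2 CPM (-1.43 ± 0.29, SE, adjusted p = 0.115, edgeR). Rps2 stood at 52.9 and 91.1 CPM (-1.37 ± 0.27, SE, adjusted p = 0.115, edgeR), and Rps15 at 167 and 301 CPM (-1.54 ± 0.42, SE, adjusted p = 0.220, edgeR). Rps14 stood at 75.5 and 167 CPM (-1.50 ± 0.36, SE, adjusted p = 0.180, edgeR). Rps3 stood at 294 and 463 CPM (-1.22 ± 0.32, SE, adjusted p = 0.217, edgeR). In all 5 both garlic libraries lay below the 4 diabetes libraries, and garlic replicate 2 lay above replicate 1.

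The log2 change was below 0 in 26 of the 32 genes, where 53.7% of all genes were above 0. The median was -0.78 against 0.07 over all genes. Garlic was lower without overlap in 13, where 7.52% of all genes met this. The changes above 0 included Rps29 (2.57 and 7.51 CPM), Rps23 (4.91 and 11.9 CPM) and Rps28 (2.88 and 8.56 CPM), at 1.10 ± 1.20, 0.79 ± 0.87 and 0.54 ± 0.82 (SE, adjusted p = 0.940, 0.943 and 0.997, edgeR). With copies, 30 of 32 changes were below 0 and the median was -1.06. Then 26 genes had an unadjusted p under 0.05 and a lower level (3.98% of all genes), and 25 were lower without overlap (7.48% of all genes).

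**Figure D5:**
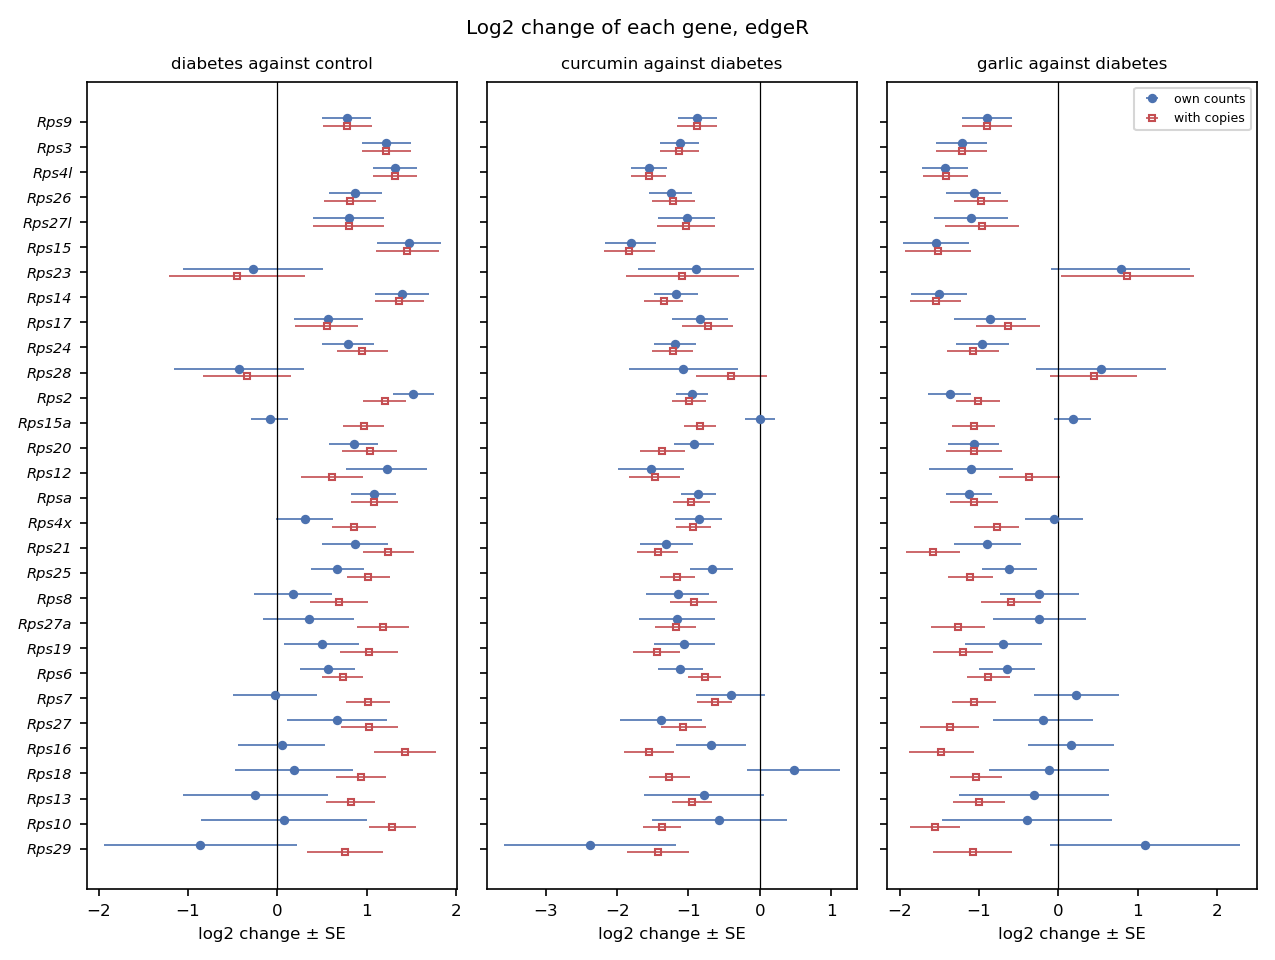
Points give the log2 change of 30 of the 32 genes in the 3 comparisons with diabetes, with SE bars, from own counts (filled circles) and with copies (open squares); genes are ordered by the share of counts at the gene, highest at the top. The circles spread around 0 towards the bottom of the panel of diabetes against control, where the medians of the lowest and highest sets are 0.13 and 1.02, while the squares of these sets have medians of 1.02 and 1.01.

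The treated groups were also set against control. No gene passed with curcumin or with garlic against control (0% of all genes in both directions). With curcumin, Rps2 alone was higher at an unadjusted p under 0.05 (0.58 ± 0.24, SE, adjusted p = 1, edgeR), where 1.06% of all genes were. Rps29 alone was lower at that p (-3.25 ± 1.28, SE), from 0, 25 and 2 own counts with curcumin, where 1.28% of all genes were. With copies neither reached it, at 0.21 ± 0.25 and -0.67 ± 0.45 (SE, unadjusted p = 0.413 and 0.155, edgeR). Rps12 was then lower at that p (-0.86 ± 0.37, SE), where 1.29% of all genes were. With garlic no gene of the 32 reached an unadjusted p under 0.05, where 0.0782% of all genes did as higher and 0.0313% as lower. DESeq2 and limma-voom also gave 0 of the 32 in both, where DESeq2 called 0.00405% of all genes higher and 0.0162% lower with curcumin. The medians were -0.38 with curcumin and -0.03 with garlic. The diabetes libraries are shared by the first 3 comparisons, so their changes are not independent of one another.

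Among the related pairs, Rps4x is the X-linked gene of the protein and Rps4l its relative. Rps4x stood at 53.7, 55.2 and 90.9 CPM in control and 87.3, 60.8, 98.0 and 83.4 CPM in diabetes (log2 change 0.31 ± 0.32, SE, adjusted p = 0.860, edgeR). It stood at 22.7, 69.7 and 43.8 CPM with curcumin (-0.86 ± 0.33, SE, adjusted p = 0.206, edgeR) and 56.3 and 102 CPM with garlic (-0.05 ± 0.37, SE, adjusted p = 1, edgeR). The groups overlapped in all 3 comparisons. The ratio of Rps4l to Rps4x counts was 0.641, 0.726 and 0.431 in control and 0.883, 1.36, 1.19 and 1.24 in diabetes. It was 1.07, 0.479 and 0.892 with curcumin and 0.499 and 0.412 with garlic, so only curcumin replicates 1 and 3 reached the range of diabetes. Rps4x held 18.7% of its family's counts. With copies the mean ratio was 0.131 ± 0.0126 in control (SD, n = 3) and 0.183 ± 0.0366 in diabetes (SD, n = 4), and the libraries overlapped. The means were 0.119 ± 0.0179 with curcumin (SD, n = 3) and 0.116 ± 0.00803 with garlic (SD, n = 2). Curcumin replicates 1 and 3, at 0.128 and 0.130, then lay beside the lowest diabetes library, at 0.128.

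Rps27l, a relative of Rps27 known as a target of p53, stood at 16.1, 17.2 and 13.1 CPM in control and 20.0, 14.5, 34.4 and 38.8 CPM in diabetes. Its log2 change was 0.80 ± 0.40 (SE, adjusted p = 0.430, edgeR). It stood at 6.76, 16.4 and 16.4 CPM with curcumin and 8.23 and 16.9 CPM with garlic. Diabetes replicate 2 fell within the control range, and diabetes replicates 3 and 4 were the highest of all. Rps27 stood at 6.07, 5.74 and 10.7 CPM in control and 10.4, 13.1, 11.2 and 12.9 CPM in diabetes (0.67 ± 0.56, SE, adjusted p = 0.765, edgeR). It stood at 0.898, 5.11 and 7.67 CPM with curcumin and 5.62 and 15.3 CPM with garlic. Rps12, a head protein, stood at 5.40, 5.58 and 7.47 CPM in control and 6.95, 12.5, 17.3 and 20.9 CPM in diabetes (1.23 ± 0.46, SE, adjusted p = 0.322, edgeR), with diabetes replicate 1 inside the control range. It stood at 5.29, 6.15 and 3.51 CPM with curcumin and 5.40 and 8.03 CPM with garlic. Rps12 held 26.0% of its family's counts. With copies it stood at 19.1, 19.9 and 47.9 CPM in control and 45.9, 36.1, 45.1 and 50.2 CPM in diabetes. Control replicate 3 then lay within the diabetes range.

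Start regions are shown because the pyrimidine tract is the feature by which these mRNAs are known to be controlled together. The windows cover 15 bases before and 15 after the RefSeq start on GRCm38.p6, on the strand of the mRNA. A tract was scored as a C followed by at least 5 bases that are each C or T, in capitals, searched on that strand only.
Rps2, chr17:24720048-24720077, plus strand: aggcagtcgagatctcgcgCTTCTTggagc
Rps6, chr4:86857353-86857382, minus strand: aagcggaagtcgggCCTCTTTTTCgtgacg
Rps10, chr17:27635230-27635259, minus strand: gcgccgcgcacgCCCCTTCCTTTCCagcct
Rps27, chr3:90213634-90213663, minus strand: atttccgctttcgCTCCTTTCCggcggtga
Rps3, chr7:99483695-99483724, minus strand: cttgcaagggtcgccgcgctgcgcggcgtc
Rps15, chr10:80292416-80292445, plus strand: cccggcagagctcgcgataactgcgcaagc

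Of the 23 genes with a window, 14 held such a tract, or 60.9%, against 6883 of 27025 genes, or 25.5%. The 4 windows with a tract shown here belong to Rps2, which passed in diabetes against control, and to 3 genes that did not. Those 3, Rps6, Rps10 and Rps27, held 8.63%, 1.35% and 2.98% of their family's counts. Their groups overlapped in own counts and not with copies added. The 2 windows without a tract belong to Rps3 and Rps15, which did not pass either and whose groups did not overlap. The windows shown are examples, and whether a tract goes with a change was not tested. A match describes the letters in the window only.

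Other genes of the ribosome and its control are given by their counts in edgeR. Of the 3 small-subunit proteins whose names fall outside the rule (Rack1, Rps3a1 and Fau), 0 passed, and 1 was higher in diabetes at an unadjusted p under 0.05. At that unadjusted p, 4.79% of all genes tested were higher in diabetes than in control and 7.48% were lower, and the counts below are read against these shares. Rack1, a scaffold on the head of the subunit, stood at 192, 228 and 193 CPM in control and 317, 334, 452 and 406 CPM in diabetes (0.88 ± 0.22, SE, adjusted p = 0.142, edgeR). Of 50 large-subunit genes tested, 0 passed in the 3 comparisons with diabetes, and their medians were 0.47, -0.79 and -0.38. At an unadjusted p under 0.05, 17 of the 50 were higher in diabetes than in control, beside 4.79% of all genes tested. Against diabetes, 22 of the 50 were lower with curcumin, beside 6.71% of all genes, and 11 of the 50 with garlic, beside 4.03%. Rplp1, a protein of the ribosomal stalk, had -1.72 ± 0.35 with curcumin (SE, adjusted p = 0.0541, edgeR). Of 53 named pseudogenes of the members tested, 0 passed in diabetes against control, where 16 were higher at an unadjusted p under 0.05. Against diabetes, 23 of the 53 were lower with curcumin at that p, beside 6.71% of all genes, and 16 with garlic, beside 4.03%. None passed with garlic, and 2 passed as lower with curcumin, where 0.0861% of all genes did. These 2 were Rps10-ps2 (-1.29 ± 0.24) and Rps15-ps2 (-1.92 ± 0.35), both with an adjusted p of 0.0460 (edgeR, SE).

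Of 38 factors that assemble the small subunit, 0 passed in the 3 comparisons with diabetes. In diabetes against control their median was -0.13, with 1 higher and 2 lower at an unadjusted p under 0.05, beside 4.79% higher and 7.48% lower among all genes. Imp3, part of the early processing complex, had 0.84 ± 0.27 (SE, adjusted p = 0.265, edgeR), and Tsr1, a late maturation factor, -0.96 ± 0.39 (SE, adjusted p = 0.347, edgeR). Of 28 initiation factors that bind the subunit, 0 passed, with a median of 0.23 and 6 higher and 1 lower at that unadjusted p. Eif3k and Eif3i, of the scaffold that prepares the subunit for initiation, had 1.10 ± 0.27 and 0.96 ± 0.23 (SE, adjusted p = 0.142 and 0.140, edgeR). Of 14 other genes with TOP mRNAs, 0 passed, with a median of 0.29 and 3 higher. Eif3e, Eif3f, Eif3h and Eif4b belong to this list and to the initiation factors, so the counts of these lists are not separate. Eef1b2, an elongation factor, stood at 132, 157 and 184 CPM in control and 339, 227, 391 and 294 CPM in diabetes (0.99 ± 0.25, SE, adjusted p = 0.145, edgeR). Of 21 genes listed around mTORC1, S6 kinase and LARP1, 0 passed, with a median of -0.28, 1 higher and 2 lower. The list also held Pdk1, Larp4, Rps6ka1, Rps6ka2 and Rps6ka3, so its counts are not of those 3 alone. Akt1s1, an inhibitor within mTORC1, had 0.89 ± 0.26, and Tsc1, of the complex that restrains it, -0.66 ± 0.25 (SE, adjusted p = 0.216 and 0.328, edgeR).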

How the data were processed

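Raw read counts per gene were deposited by the authors as 1 table. FastQC, featureCounts and GRCm39 are named in the submitters' processing notes. For the aligner, annotation release, strand setting and handling of multiply mapped reads, nothing is given in the sources used here. GENCODE M21 and RefSeq (both GRCm38) supplied names, coding sequences and start windows only, and 51486 of 78334 IDs (65.7%, with 97.8% of counts) matched a symbol. The members and lists were chosen with earlier results of these data known. Genes were filtered with filterByExpr, which left 25562, scaled by TMM and fitted over all 12 libraries with edgeR 4.0.16 (quasi-likelihood test, R 4.3.3), with Benjamini-Hochberg adjustment over all genes and a threshold of 0.05; no covariate was used. CPM are relative to the scaled library size. Alternatives used DESeq2 1.42.0, limma 3.58.1, RLE scaling, other filters and left-out libraries. Shares of all genes are over 49370 genes with DESeq2 and over 50209 with no low-count filter. Both include genes with few counts that the main fit leaves out, so these shares are not like the main ones. Library values are named for genes that passed, the 4 highest and 4 lowest log2 changes, the 3 highest per length and the related pairs; Rps10, Rps16, Rps6 and Rpsa were added after their values were seen. The method was tested on simulated counts. The common dispersion of the main fit was 0.653, a coefficient of variation of 0.808 between libraries of a group. With so few libraries a group, a gene that did not pass may still differ. The labels do not say that libraries came from separate animals, so a p-value reflects only how far libraries of a group differ, and that spread may be technical. Floors cover counting error only. The protocol and the design text give different starts for the treatments. Same-numbered libraries correlated between -0.179 and 0.252, so the numbers were not taken as pairs. Some genes that this rule names are left out of the text and figures and are not reported here.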

Additional observations from a re-analysis of the deposited data

How the results depend on the processing

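The main counts of genes that passed were 1 in diabetes against control, 1 in curcumin against diabetes and 0 in garlic against diabetes. Below, each count above 0 is followed by the share of all genes tested that passed in the same direction (higher in diabetes, lower with either treatment) under the same alternative. For diabetes against control the count was 8 (0.715%) with no low-count filter, 7 (1.39%) when only the groups compared were fitted, 7 (0.837%) with DESeq2 and 14 (2.83%) with limma-voom. It was 0 with a stricter filter, the replicate number as a block, a covariate for detected genes, the length correction, all copies added or the libraries that stand apart left out, and 0 to 0 with 1 library left out. For curcumin against diabetes it was 14 (1.3%) with no filter, 6 (1.28%) with the covariate, 9 (3.3%) without the libraries that stand apart, 15 (1.61%) with DESeq2, 2 (0.45%) with limma-voom, 3 (0.434%) with RLE scaling and 2 (0.156%) with the block. It was 0 when only the groups compared were fitted, after length correction and under a stricter filter. Leaving out 1 library gave 0 to 14, with 14 (4.82%) without curcumin replicate 2 and 2 (0.217%) without diabetes replicate 2. For garlic the count was 7 (0.552%) with no filter, 8 (0.847%) with DESeq2, 9 (1.4%) with limma-voom and 0 to 2 with 1 library left out. The 2 (0.124%) came without garlic replicate 2, where the lone garlic library is assumed to vary like the others. The causes were not tested. The comparisons of curcumin and of garlic with control had 0 in every alternative run.

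The median log2 change of 0.67 in diabetes against control was 1.14 with the covariate, 0.92 with named pseudogenes added and 1.01 with all copies. That of garlic against diabetes, -0.78, was -1.43 with the covariate, -0.51 without the libraries that stand apart and -0.44 without garlic replicate 1. That of curcumin against control, -0.38, was -0.74 without curcumin replicate 2, -0.15 without curcumin replicate 1 and -0.20 without control replicate 3. That of garlic against control, -0.03, was 0.28 without garlic replicate 1, -0.48 without garlic replicate 2, -0.14 without control replicate 1 and 0.10 without control replicate 3.

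Changes of direction concerned genes that did not pass. In diabetes against control, Rps13 was at 0.22 with the block, 0.50 with the covariate, 0.10 without control replicate 3, 0.82 with named pseudogenes or all copies and 0.30 with limma-voom. Rps23 was at 0.55 with the covariate and 0.43 without control replicate 3, Rps28 at 0.49 without control replicate 3 and 0.20 with limma-voom, and Rps29 at 2.57 with the covariate, 0.93 without control replicate 3, 0.76 with all copies and 0.39 with limma-voom. In garlic against diabetes, Rps13 was at 0.041, Rps27 at 0.35 and Rps4x at 0.30 without garlic replicate 1. With the covariate Rps23 was at -0.61, Rps28 at -0.15 and Rps29 at -4.94. Rps28 was at -0.45 without garlic replicate 2 and Rps29 at -1.08 with all copies. Rps4x was at 0.00054 with no filter, 0.041 without diabetes replicate 3 and 0.019 with only the groups compared. With 1 library left out, the ranges in diabetes against control were -0.59 to 0.097 for Rps13, -0.61 to 0.43 for Rps23, -0.80 to 0.49 for Rps28 and -1.33 to 0.93 for Rps29. In garlic against diabetes they were -0.78 to 0.041 for Rps13, -1.08 to 0.35 for Rps27, -0.45 to 1.11 for Rps28 and -0.55 to 0.30 for Rps4x. Rps2, Rps3, Rps4l, Rps12, Rps14, Rps15 and Rps27l kept their direction in every alternative run for the 3 comparisons with diabetes.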
